A study of Mus musculus with 24 samples.

Results

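The comparison described here is that of cystic mouse kidneys with and without a deletion of the miR-17 binding motif in the 3′ UTR of Pkd1. It covers 10 of the 24 libraries of the series, the 5 of RC/- D18 (replicates 18 to 22) and the 5 of RC/- (replicates 13 to 17), defined by their genotype labels. All libraries came from whole kidneys of C57BL/6 mice (C57BL/6 J in the study's methods) aged 18 days, 1 library per mouse as far as the labels go, so that p-values measure the spread between these libraries. All had 1 copy of Pkd1 with the RC missense mutation, which lowers the amount of working polycystin-1. In RC/- mice the other allele was a floxed one that Ksp-Cre, driven by the cadherin 16 promoter, removed in the tubule epithelium, so that interstitial, vascular and glomerular cells of the same kidneys kept it. RC/- D18 mice had the same genotype and in addition lacked the motif on the RC allele. They were descendants of 1 CRISPR-edited mouse (founder 3), the labels do not give the founder of the RC/- mice, and an effect of the deletion cannot be told apart from other differences carried by that line. The non-cystic RC/+ mice, which had the floxed allele without Cre (3 libraries, replicates 4 to 6) and RC/+ D18 mice (3 libraries, replicates 7 to 9, founder 3) give the background. The series also holds RC/+ D53 (3 libraries) and RC/- D53 (5 libraries), from another edited line. They are not compared here, but they entered the limma fit, its gene filter and its estimate of the spread. The labels do not say which mice were littermates.

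Pkd1 encodes polycystin-1, a large receptor-like protein of the primary cilium and plasma membrane of tubule cells, and its loss causes autosomal dominant polycystic kidney disease. In that disease tubule cells divide, flatten and secrete fluid, neighbouring nephrons are compressed, and macrophages and myofibroblasts fill the interstitium. MicroRNAs of the miR-17 family silence mRNAs by pairing their seed, bases 2 to 8 from the 5′ end, with a matching motif in the 3′ UTR, and they are known as drivers of cyst growth. The mature sequences of 3 members are shown with the seed in capitals because this is the part that the deleted motif pairs with. The table holds 7 mature mouse miRNAs with this seed: miR-17-5p, miR-20a-5p, miR-20b-5p, miR-93-5p, miR-106a-5p, miR-106b-5p and miR-6383. They are RefSeq sequences on GRCm38.p6.
mmu-miR-17-5p: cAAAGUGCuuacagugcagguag
mmu-miR-20a-5p: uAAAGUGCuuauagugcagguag
mmu-miR-93-5p: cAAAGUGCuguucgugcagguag
The complement of that seed occurred 1 time in the 969 bases annotated as the 3′ UTR of the Pkd1 transcript Pkd1-201 (GENCODE M21, GRCm38, plus strand). It lies in exon 46, the last exon, at chr17:24595732-24595738. The unedited sequence around it, chr17:24595717-24595746, is given with the seed match in capitals.
Pkd1 3′ UTR site: acatatggggcttctGCACTTTaaaaaggc

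The files hold the number of reads assigned to each gene. Total counts ran from 22.6 to 25.2 M reads in RC/- and from 20.9 to 28.1 M reads in RC/- D18 and were not shown to differ (difference of means 1.26 M, two-sided exact permutation test, p = 0.41, n = 5 and 5). Values below are counts scaled to a total of 1000000 per library (CPM), listed in the order of the replicate numbers, and fold changes are limma estimates on log2 CPM with a prior count of 2, given ± their standard error, while ± after CPM is 1 SD. An adjusted p is Benjamini-Hochberg adjusted over all genes tested. A prior count draws the fold change of genes with few counts toward 0. The defining markers of kidney were present in all 10 libraries, with Slc34a1 of the proximal tubule at 649.5 to 1793 CPM in RC/- and 2984 to 4302 CPM in RC/- D18, Umod of the thick ascending limb at 817 to 1343 and 1337 to 1704 CPM, and Nphs1 of the podocyte at 10.3 to 18.7 and 28.4 to 37.9 CPM. Libraries stood apart in 2 ways that the genotype labels do not give. RC/- D18 replicates 20 to 22 held transcripts of skeletal muscle, with the 20 genes of a muscle list summing to 272, 249.6 and 284 CPM against 35.7 and 38.4 CPM in replicates 18 and 19 and 43.5 to 54.5 CPM in RC/-. RC/- replicate 16 held transcripts of the adrenal cortex, with 7 genes summing to 1899 CPM against 10.2 to 13.4 CPM in the other RC/- libraries and 5.12 to 12.6 CPM in RC/- D18. By Xist and Ddx3y levels, each cystic group held 3 female and 2 male mice.

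The motif deletion in cystic kidneys went with a change in 41.2% of the genes tested: of 22570 genes tested, 9305 differed between RC/- D18 and RC/- at an adjusted p below 0.05, 3238 of them higher (14.3%) and 6067 lower (26.9%) in RC/- D18. The lower genes included all 12 of a tubule injury list, all 18 of a keratin and barrier list, all 15 of a macrophage list and 14 of 15 of a fibrosis list, and the higher genes 18 of 20 of a proximal tubule list and 19 of 20 of an oxidative phosphorylation list. A log2 fold change of at least 1 in size was reached by 2515 of the called genes (11.1%), 1004 higher (4.45%) and 1511 lower (6.69%). The 5 libraries of one group did not overlap the 5 of the other in CPM for 6274 of the tested genes (27.8%), 6137 of which were called. The first principal component of the 10 libraries carried 59.6% of the variance and placed all RC/- libraries on one side, from -50.4 to -20.2, and all RC/- D18 libraries on the other, from 26.97 to 49.2. The split between higher and lower genes depended on the scaling. The 20 most abundant genes of a library held 10.5% to 13.1% of its counts in RC/- D18 and at most 7.81% in RC/-. With total counts the median log2 fold change of all tested genes was -0.10, and with TMM factors, which centre the bulk of the genes, it was 0.00 and the calls divided into 4442 higher (19.7%) and 4398 lower (19.5%). Medians of gene lists below are to be read against -0.10, and counts of members called against 14.3% higher and 26.9% lower. The lists were chosen with earlier results of these data known. A count above these shares therefore describes the list and is not independent evidence of a direction. Without RC/- D18 replicates 20 to 22 the test called 6120 genes, 2389 higher (10.5%) and 3731 lower (16.5%), and 5762 of the 9305 genes kept their call and sign.

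**Figure D1:**
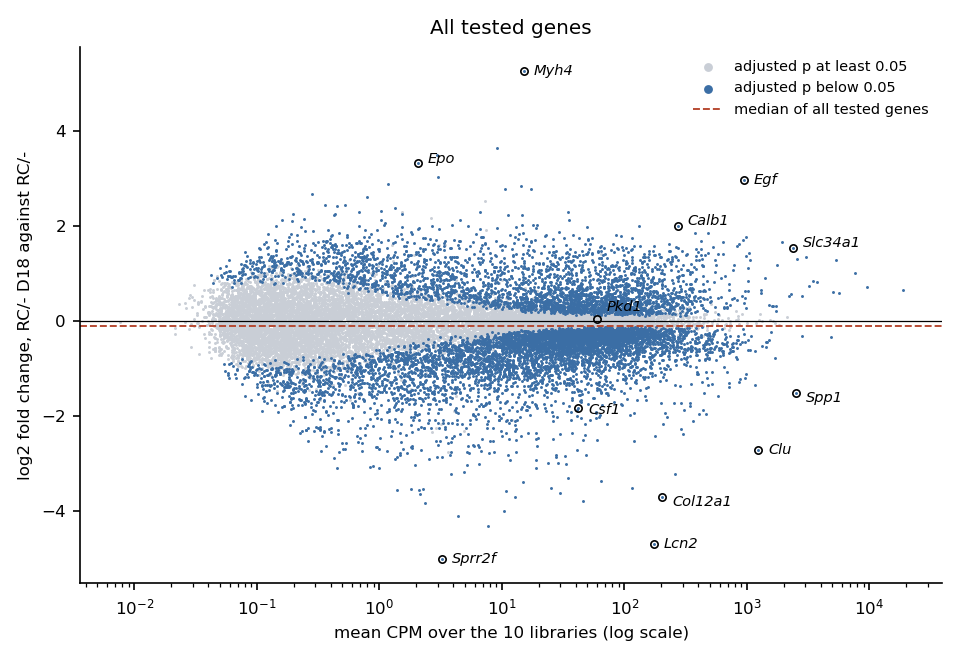
Each point is 1 of the 22570 tested genes, with the mean CPM over the 10 cystic libraries on a log scale (x axis) and the log2 fold change of RC/- D18 against RC/- (y axis), blue where the adjusted p was below 0.05. The dashed line marks the median of all genes at -0.10, and Pkd1 lies near 0 while Lcn2 lies at -4.70 and Egf at 2.97.

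Pkd1 mRNA, the target of the deletion, did not differ detectably between the groups. Pkd1 (ENSMUSG00000032855) stood at 65.2, 58.3, 51.95, 55.1 and 64.4 CPM in RC/- and 58.1, 71.4, 60.2, 61.03 and 53.8 CPM in RC/- D18. The ranges overlapped almost in full, and limma gave 0.05 ± 0.10, adjusted p = 0.77 (log2 fold change). The levels in the non-cystic groups were 50.7 ± 0.803 CPM in RC/+ and 61.7 ± 4.43 CPM in RC/+ D18 (SD, n = 3 each). These counts cover the whole gene in all kidney cells, so neither the loss of the motif shown above nor the tubule level of the RC allele can be read from them. The study reported higher usage of the RC allele by paired-end RNA-seq in edited than in unedited cystic kidneys. It also reported more polycystin-1 protein there. Both are other measures than the whole-gene counts given here. Of 32 tested genes within 250 kb of Pkd1, 7 were higher and 10 lower, or 53.1% called against 41.2% of all genes. Among protein-coding genes alone the shares were larger than among all genes, with 15.9% higher and 33.9% lower. Whether the neighbours of Pkd1 differ from other genes was not tested. Pkd2, which encodes the channel partner of polycystin-1, had 232, 252, 229, 210.0 and 244 CPM in RC/- and 248, 265, 249, 259 and 236 CPM in RC/- D18 (log2 fold change 0.11 ± 0.06, adjusted p = 0.17). With TMM factors its estimate was 0.23 ± 0.06, adjusted p = 0.0071.

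Among 5 further genes that the study followed in cystic disease, the mRNA of Myc and Mrc1 fell clearly. The study followed them as proteins by immunoblot or immunostaining, Creb1 in its phosphorylated form and Mettl3 in Pkd2-edited cells. The mRNA values here do not measure protein or phosphorylation. Myc, a transcription factor of growth and cyst formation, had 29.8, 30.03, 33.4, 46.9 and 39.8 CPM in RC/- and 16.1, 13.8, 17.3, 13.9 and 14.5 CPM in RC/- D18. Every RC/- D18 library lay under every RC/- library (log2 fold change -1.23 ± 0.14, adjusted p = 1.1e-07), and the non-cystic levels were 11.9 ± 1.32 CPM in RC/+ and 10.1 ± 2.71 CPM in RC/+ D18. Mrc1, the mannose receptor of alternatively activated macrophages, had 52.9, 37.6, 52.2, 69.4 and 63.3 CPM in RC/- and 16.7, 19.6, 17.1, 15.3 and 11.1 CPM in RC/- D18, again without overlap (log2 fold change -1.78 ± 0.16, adjusted p = 7.0e-09). In whole kidneys fewer cells of a type and less RNA per cell cannot be told apart, here or in any result below. Yap1, the coactivator of the Hippo pathway, was lower by a small amount under total counts (log2 fold change -0.16 ± 0.05, adjusted p = 0.0094) and not with TMM factors (-0.04 ± 0.05, adjusted p = 0.53). The transcription factor Creb1 (-0.11 ± 0.07, adjusted p = 0.19) and the RNA methyltransferase Mettl3 (-0.02 ± 0.09, adjusted p = 0.90) did not pass the test. The study picked these genes with this disease in mind, so their count is not independent evidence of a direction.

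Genes that injured or cyst-lining tubule cells switch on fell steeply. Lcn2, the secreted iron-siderophore carrier NGAL, stood at 220.0, 271, 331, 382 and 466 CPM in RC/- and 21.1, 16.2, 14.4, 9.40 and 6.29 CPM in RC/- D18. It was 24.8-fold lower in the mean of RC/- D18 (log2 fold change -4.70 ± 0.34, adjusted p = 2.6e-10), and the non-cystic kidneys held 6.47 ± 1.43 CPM in RC/+ and 4.66 ± 2.63 CPM in RC/+ D18. Havcr1, the injury marker KIM-1, had 3.46, 8.49, 29.8, 16.1 and 40.2 CPM in RC/- and 0.657, 3.59, 0.942, 0.434 and 0.320 CPM in RC/- D18. RC/- replicate 13 overlapped RC/- D18 replicate 19, and the difference passed the test (-4.00 ± 0.54, adjusted p = 2.1e-06). Clu, the secreted chaperone clusterin, had 1205, 1612, 2702, 2268 and 3070.1 CPM in RC/- and 359, 299, 302, 332 and 281 CPM in RC/- D18, a 6.90-fold lower mean without overlap (-2.71 ± 0.17, adjusted p = 2.7e-11). Spp1, the matrix phosphoprotein osteopontin, showed the largest fall in CPM of any called gene, from 3786 ± 991 to 1284 ± 68.6 CPM (SD, n = 5 each). All 12 members of the tubule injury list were lower, where 26.9% of all genes were, with a median log2 fold change of -2.11 against -0.10 for all genes, and 9 of them did not overlap. Their summed CPM was 5036 to 9512 in RC/-, 1862 to 2139 in RC/- D18 and 1714 to 2048 in the non-cystic kidneys.

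Genes of keratin filaments and of the cornified or stretched epithelium fell together, all 18 of the list, with a median of -1.90. Sprr2f, a precursor of the cornified envelope, had the lowest fold change among the genes named by size. Its values were 2.48, 3.38, 9.25, 7.72 and 9.25 CPM in RC/- and 0.131, 0.240, 0.0392, 0.108 and 0.0355 CPM in RC/- D18 (log2 fold change -5.00 ± 0.48, adjusted p = 1.4e-08), and its paralogue Sprr2g, whose reads may not separate fully from it, gave -4.31 ± 0.36. S100a14, a calcium-binding protein of stratified epithelium, had 68.8, 87.2, 124, 149 and 160.0 CPM in RC/- and 10.8, 10.2, 8.95, 17.1 and 8.60 CPM in RC/- D18 (-3.37 ± 0.22, adjusted p = 4.8e-11). Krt20, a keratin of umbrella cells that injured tubules also make, had 5.43, 5.45, 30.03, 41.5 and 23.2 CPM in RC/- and 1.36, 2.64, 2.001, 1.55 and 2.52 CPM in RC/- D18 (-2.93 ± 0.50, adjusted p = 4.6e-05). Markers of the urothelium, which lines the renal pelvis, moved in part with this list: of 7 urothelial genes 3 were called lower, and their sum was 207, 248, 36.5, 237 and 180.5 CPM in RC/- and 73.8, 28.9, 98.6, 63.3 and 75.4 CPM in RC/- D18. The part of the urothelium in these changes was not tested.

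**Figure D2:**
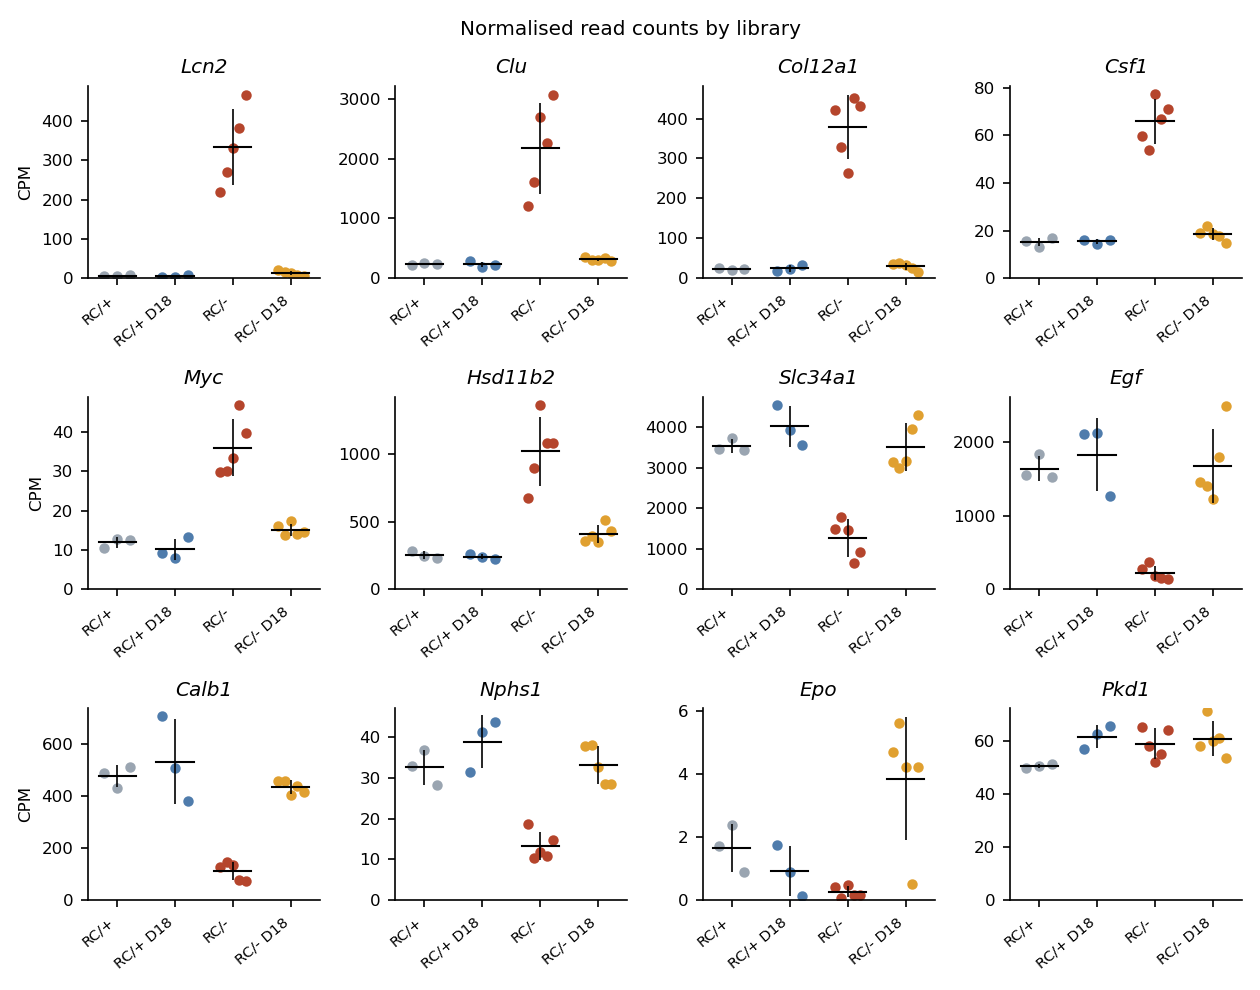
CPM of 12 genes (y axes, from 0) in RC/+ (3 libraries), RC/+ D18 (3), RC/- (5) and RC/- D18 (5), 1 point per library in replicate order, with a horizontal line at the mean and a vertical line of 1 SD. Lcn2, Clu, Col12a1, Csf1, Myc and Hsd11b2 were lower and Slc34a1, Egf, Calb1, Nphs1 and Epo higher in all RC/- D18 libraries than in all RC/- libraries, while Pkd1 overlapped.

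Ligands of the epidermal growth factor family divided into opposite directions. Egf itself, made by the thick ascending limb and distal convoluted tubule, had 279, 364, 181, 149 and 139 CPM in RC/- and 1455, 1407, 1229, 1796 and 2495 CPM in RC/- D18. The lowest RC/- D18 library lay above the highest RC/- library, and the mean was 7.54-fold higher (2.97 ± 0.27, adjusted p = 6.4e-09). Among the ligands that cyst epithelium and injured tubules release, betacellulin (Btc) fell from 67.8 ± 13.9 to 21.5 ± 4.42 CPM (-1.65 ± 0.17, adjusted p = 6.2e-08) and neuregulin (Nrg1) from 12.7 ± 1.90 to 4.62 ± 1.25 CPM (-1.47 ± 0.17, adjusted p = 2.3e-07). Epiregulin (Ereg) was called lower at very low counts (adjusted p = 9.6e-05), with 7, 9, 7, 7 and 12 reads in RC/- and 0, 0, 1, 0 and 1 in RC/- D18. The 4 receptors Egfr, Erbb2, Erbb3 and Erbb4 did not pass the test under total counts, with log2 fold changes of -0.08, -0.23, -0.07 and 0.29. Over the list of 12, 1 gene was higher and 6 lower, beside 14.3% and 26.9% of all genes. With TMM factors 2 were higher and 6 lower.

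Transporters, enzymes and other markers of the proximal tubule, the segment that reclaims most of the filtrate, were higher in RC/- D18. Of 20 such genes 18 rose, where 14.3% of all genes did, all 18 without overlap and with a median of 1.44. Slc34a1, the phosphate cotransporter of the brush border, had 1496, 1793, 1469.9, 649.5 and 918 CPM in RC/- and 3141, 2984, 3169.6, 3964 and 4302 CPM in RC/- D18 (1.55 ± 0.19, adjusted p = 3.7e-07). RC/- replicates 16 and 17 were lowest. Lrp2, the endocytic receptor megalin, had 619.5, 559, 406, 230.2 and 343 CPM in RC/- and 1197, 1162, 1162, 1274 and 1311 CPM in RC/- D18 (1.59 ± 0.17, adjusted p = 5.4e-08), and its partner Cubn gave 1.41 ± 0.17. Miox, which breaks down inositol in this segment, had the largest change of the list, from 462 ± 195 to 1417 ± 309 CPM (1.70 ± 0.21, adjusted p = 4.4e-07), followed by Gatm of creatine synthesis (1.68 ± 0.19), Pck1 (1.67 ± 0.26) and the urea cycle enzyme Ass1 (1.62 ± 0.17). The cytochromes Cyp2e1 (0.08 ± 0.27, adjusted p = 0.85) and Cyp4b1 (0.21 ± 0.18, adjusted p = 0.40) did not pass the test. Kap, an androgen-regulated protein of proximal tubule cells, was among the 6 largest rises in CPM, from 3154 ± 679 to 7597 ± 658 CPM, with Ugt3a1 (2.23 ± 0.24), a conjugating enzyme, and Slc22a27 (2.23 ± 0.23), an organic anion transporter, among the 12 highest fold changes. Gpx3, the plasma glutathione peroxidase secreted by the same cells, rose from 4930.1 ± 947 to 10284 ± 3337 CPM.

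In the thick ascending limb and distal convoluted tubule 11 of 14 genes were higher and 1 lower, with a median of 1.10. Slc12a1, the cotransporter blocked by furosemide, had 1476, 1635, 876, 794 and 762 CPM in RC/- and 2449.8, 2565, 2186, 2428 and 2313 CPM in RC/- D18 (1.18 ± 0.19, adjusted p = 2.1e-05). Slc12a3, the thiazide-sensitive cotransporter, had 285, 268, 247, 121 and 156 CPM in RC/- and 771, 769, 529.8, 842 and 841 CPM in RC/- D18 (1.86 ± 0.18, adjusted p = 1.6e-08). Both were free of overlap. The calcium-buffering proteins of the distal convoluted tubule gave the largest changes after Egf, with Pvalb at 2.79 ± 0.31, adjusted p = 1.6e-07 and Calb1 at 2.01 ± 0.16, adjusted p = 8.2e-10, followed by Slc12a3. Cldn16, a tight junction protein of the thick ascending limb, went the other way by a small amount (-0.36 ± 0.09, adjusted p = 0.0027), a call that was lost without replicates 20 to 22 (adjusted p = 0.14). Cdh16, whose promoter drives the Cre, was at 1414 to 1954 CPM in RC/- and 1579 to 1876 CPM in RC/- D18 and did not pass the test (-0.03 ± 0.07, adjusted p = 0.77). Among the 12 highest fold changes were also Tmem207, a membrane protein, at 2.02 ± 0.35 and the phosphatase Dusp15 at 2.02 ± 0.24.

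Collecting duct genes went in both directions. Of 14 genes 9 were lower and 3 higher, beside 26.9% and 14.3% of all genes. The 3 higher ones belong to intercalated cells, which move acid and base. Slc4a1, their basolateral anion exchanger and also the band 3 protein of red cells, had 14.96, 20.9, 11.1, 7.01 and 8.27 CPM in RC/- and 48.9, 62.6, 61.8, 51.7 and 62.7 CPM in RC/- D18 (2.30 ± 0.21, adjusted p = 7.0e-09), Slc26a4 (pendrin) gave 1.45 ± 0.13, adjusted p = 4.6e-09 and the proton pump subunit Atp6v1g3 0.53 ± 0.09, adjusted p = 2.1e-05. Foxi1, the transcription factor of these cells, did not pass the test (-0.17 ± 0.13, adjusted p = 0.32). Of 7 red cell genes 0 was called by limma (1 at an unadjusted p below 0.05), 0 by edgeR and 0 by DESeq2. Their median log2 fold change was 0.35, and 0.64 without replicates 20 to 22. The part of red cells in the change of Slc4a1 was not tested. Genes of principal cells, which take up sodium and water under aldosterone and vasopressin, were lower. Hsd11b2, the enzyme that keeps cortisol and corticosterone off the aldosterone receptor, had 677, 896, 1367, 1086 and 1084 CPM in RC/- and 357, 394, 351, 512 and 431 CPM in RC/- D18 (-1.30 ± 0.13, adjusted p = 4.5e-08). Gata3, a transcription factor of the collecting duct lineage, had 94.1, 105, 115, 107 and 102 CPM in RC/- and 36.4, 35.03, 35.4, 37.6 and 39.2 CPM in RC/- D18 (-1.50 ± 0.10, adjusted p = 9.3e-11), and Fxyd4, a regulator of the sodium pump, gave -1.38 ± 0.12, adjusted p = 6.2e-09. Aqp2, the vasopressin-regulated water channel, fell in the mean (-1.12 ± 0.32, adjusted p = 0.0063) but spread widely, with 1103, 1420.0, 1927, 2101 and 439 CPM in RC/- and 605, 397, 596, 545 and 746 CPM in RC/- D18, and RC/- replicate 17 lay below 4 of the 5 RC/- D18 libraries.

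Transcription factors that set tubule identity were mostly higher, 11 of 20 against 5 lower, with a median of 0.55. Of all genes 14.3% were higher and 26.9% lower, so the share of lower members was near that of all genes. Hnf4a, which drives proximal tubule genes, rose with a log2 fold change of 1.20 ± 0.12 and stood at 149 to 262 CPM in RC/- and 422 to 581 CPM in RC/- D18. The 5 lower ones were Gata3, Wnt4 (-1.29 ± 0.30), which is a signal rather than a factor and acts in nephron formation, the early kidney factors Pax2 (-0.46 ± 0.17) and Pax8 (-0.37 ± 0.09), and Tfcp2l1 of the collecting duct (-0.30 ± 0.10). The calls of Pax2 and Tfcp2l1 were lost with TMM factors and without replicates 20 to 22.

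Podocyte genes were higher in 7 of 10 and lower in 3, beside 14.3% and 26.9% of all genes. Nphs1 (nephrin), a protein of the slit diaphragm, gave the largest change. It had 18.7, 10.3, 11.8, 10.8 and 14.7 CPM in RC/- and 37.8, 37.9, 32.7, 28.4 and 28.5 CPM in RC/- D18, free of overlap (1.34 ± 0.14, adjusted p = 4.2e-08). The 3 lower genes, Cd2ap (-0.63 ± 0.08), Plce1 (-0.53 ± 0.10) and Synpo (-0.40 ± 0.11), encode adaptor, phospholipase and actin-binding proteins. The limma call of Synpo was lost without replicates 20 to 22 (adjusted p = 0.14). Which cells account for these 3 was not tested. Endothelial genes changed less: 8 of 12 were higher, with a median of 0.30, and Pecam1, the pan-endothelial adhesion molecule, was not among them (0.02 ± 0.10, adjusted p = 0.89). Emcn gave 0.65 ± 0.13, adjusted p = 3.3e-04 and the angiopoietin receptor Tek 0.70 ± 0.12, adjusted p = 4.9e-05.

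Hormone genes of the kidney were higher in 10 of 11, with a median of 0.95. Epo, erythropoietin, which interstitial fibroblast-like cells release when oxygen is low, had the highest fold change of the genes named by size. It stood at 0.428, 0.0845, 0.477, 0.168 and 0.177 CPM in RC/- and 4.69, 5.61, 4.24, 0.506 and 4.23 CPM in RC/- D18, from 10, 2, 12, 4 and 4 reads in RC/- and 107, 117, 108, 14 and 119 in RC/- D18 (3.32 ± 0.57, adjusted p = 4.6e-05). RC/- D18 replicate 21 lay far under the other 4 libraries of its group and only just above the highest RC/- library, and the non-cystic kidneys held 1.66 ± 0.754 CPM in RC/+ and 0.924 ± 0.804 CPM in RC/+ D18. Against RC/+ D18 the log2 fold change of Epo was 2.11 ± 0.66, adjusted p = 0.25. Ren1 (renin) had 83.7, 43.6, 80.4, 54.03 and 159.8 CPM in RC/- and 266, 295, 166, 136 and 107 CPM in RC/- D18 (1.24 ± 0.28, adjusted p = 9.8e-04), with the highest values in RC/- D18 replicates 18 and 19 and overlap between replicate 17 of RC/- and replicates 21 and 22. Without replicates 20 to 22 its estimate was 1.88 ± 0.33. Ace, the angiotensin-converting enzyme, gave 1.34 ± 0.14, adjusted p = 4.3e-08, and Kl, the ageing-related coreceptor klotho of the distal tubule, 1.29 ± 0.13, adjusted p = 2.3e-08.

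Mitochondrial transcripts took a larger share of the reads after the motif deletion. Genes of the mitochondrial genome held 3.69%, 3.73%, 3.69%, 4.05% and 3.16% of counts in RC/- and 5.44%, 5.38%, 5.58%, 6.34% and 6.78% in RC/- D18. The groups did not overlap (difference of means 2.24 percentage points, two-sided exact permutation test, p = 0.0079, n = 5 and 5, the smallest that 5 against 5 libraries allow), and the non-cystic RC/+ and RC/+ D18 libraries held 5.46% to 6.67%. Without replicates 20 to 22 the difference was 1.74 percentage points (exact permutation test, p = 0.095, the smallest that 2 against 5 libraries allow). Of 13 protein-coding genes of that genome 12 were higher, with a median of 0.62, and mt-Co1, mt-Cytb and mt-Nd1 were among the 6 largest rises in CPM. In the oxidative phosphorylation list, made of nuclear respiratory chain and ATP synthase genes and the regulators Ppargc1a and Tfam, 19 of 20 rose, with a smaller median of 0.47. The coactivator Ppargc1a, which drives mitochondrial genes, had 102, 88.6, 75.6, 71.4 and 73.04 CPM in RC/- and 163, 168, 136, 131 and 145 CPM in RC/- D18 (0.86 ± 0.12, adjusted p = 3.0e-06), followed by Ndufs1 of complex I (0.76 ± 0.07) and Sdhb and Sdha of complex II (0.69 ± 0.06 and 0.66 ± 0.07).

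Fuel pathways of the proximal tubule were higher as well. In fatty acid oxidation 17 of 18 genes rose (median 0.61), with Acaa1b (1.41 ± 0.16), the nuclear receptor Ppara (1.15 ± 0.21) and Ehhadh (1.09 ± 0.19). This list leaned on replicates 20 to 22, without which 12 were called with a median of 0.40 and Ppara was not (adjusted p = 0.054). All 12 genes of gluconeogenesis and fructose metabolism rose without overlap (median 1.33), with G6pc, the last step of glucose release, at 220.0, 195, 162, 118 and 136 CPM in RC/- and 576, 549.6, 509, 621 and 684 CPM in RC/- D18 (1.85 ± 0.18, adjusted p = 1.4e-08). Amino acid breakdown was higher in 12 of 16 and lower in 2 (median 1.08), with Hpd of tyrosine breakdown at 2.79 ± 0.49, adjusted p = 6.7e-05 and Uroc1 at 1.94 ± 0.24. Its 2 lower members, Tat and Hal, lay below 2 CPM in every library, and Tat lost its call without replicates 20 to 22 (adjusted p = 0.17). Glycolysis went the opposite way, with 10 of 16 lower and 1 higher (median -0.30; with TMM factors 7 lower). Slc16a3, the lactate exporter, fell from 44.9 ± 10.7 to 11.2 ± 3.40 CPM (-2.01 ± 0.31, adjusted p = 1.0e-05) and Hk2 by 1.20 ± 0.37 on the log2 scale, while Pfkm, the muscle-type phosphofructokinase, rose (0.40 ± 0.07, adjusted p = 5.6e-05, and 0.35 ± 0.10, adjusted p = 0.0098 without replicates 20 to 22). Cholesterol synthesis showed no common direction, with 2 of 15 higher and 8 lower under total counts, 2 higher and 4 lower with TMM factors, and 1 higher and 4 lower without replicates 20 to 22.

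Matrix and myofibroblast genes were lower in RC/- D18. Of 15 genes in the fibrosis list 14 fell, with a median of -1.27. Col12a1, a collagen of tissues under tension, was outside that list and among the 12 lowest fold changes by the naming rule. It had 423, 329, 263, 450.3 and 431 CPM in RC/- and 36.6, 38.8, 32.5, 26.3 and 16.1 CPM in RC/- D18. The mean was 12.6-fold lower without overlap (-3.69 ± 0.20, adjusted p = 6.5e-12). Acta2, the smooth muscle actin of myofibroblasts, had 630.2, 437, 310.3, 540.0 and 483 CPM in RC/- and 135, 131, 118, 78.5 and 52.1 CPM in RC/- D18 (-2.27 ± 0.26, adjusted p = 1.9e-07), and Col1a1, the main fibrillar collagen, had 804, 708, 581, 841 and 738 CPM in RC/- and 256, 300.1, 173, 169.5 and 104 CPM in RC/- D18 (-1.96 ± 0.22, adjusted p = 1.6e-07). Within RC/- D18 both were highest in replicates 18 and 19 and lowest in replicate 22. Without replicates 20 to 22, 9 genes of the list stayed called and the median was -0.78. Col3a1 and Sparc were 2 of the 6 largest falls in CPM (-1.35 ± 0.25 and -0.77 ± 0.13). Tnn, a matrix protein of the tenascin family, went the other way, with 14.3, 15.4, 0.556, 2.60 and 0.531 CPM in RC/- and 15.8, 16.4, 28.6, 20.8 and 27.6 CPM in RC/- D18 (2.84 ± 0.65, adjusted p = 0.0011), and RC/- replicates 13 and 14 lay far above the other 3 of their group. The cell adhesion molecule Cntn1 also rose (2.01 ± 0.21, adjusted p = 4.0e-08).

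Matrix turnover was mixed: 12 of 15 genes fell and 3 rose, beside 26.9% and 14.3% of all genes. Timp1, an inhibitor of matrix metalloproteinases, had 10.9, 13.98, 21.7, 30.1 and 22.7 CPM in RC/- and 1.62, 2.92, 1.73, 1.23 and 0.746 CPM in RC/- D18 (-3.56 ± 0.31, adjusted p = 4.6e-09). The metalloproteinases Mmp7 (-2.55 ± 0.50, adjusted p = 2.1e-04) and Mmp12 (-1.63 ± 0.35, adjusted p = 5.6e-04) fell at low counts. The 3 genes that rose were Mmp9 (1.23 ± 0.32, adjusted p = 0.0036), the urokinase Plau (0.45 ± 0.12, adjusted p = 0.0049) and Timp3 (0.42 ± 0.13, adjusted p = 0.013), of which only Plau kept its call without replicates 20 to 22. Of 10 smooth muscle genes 7 fell, with Actg2 the lowest (-3.70 ± 0.43, adjusted p = 2.5e-07) and then Cnn1 (-2.42 ± 0.31), Acta2 and Tagln (-1.89 ± 0.30), and 67.9% of the exon bases of Tagln are shared with another gene.

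**Figure D3:**
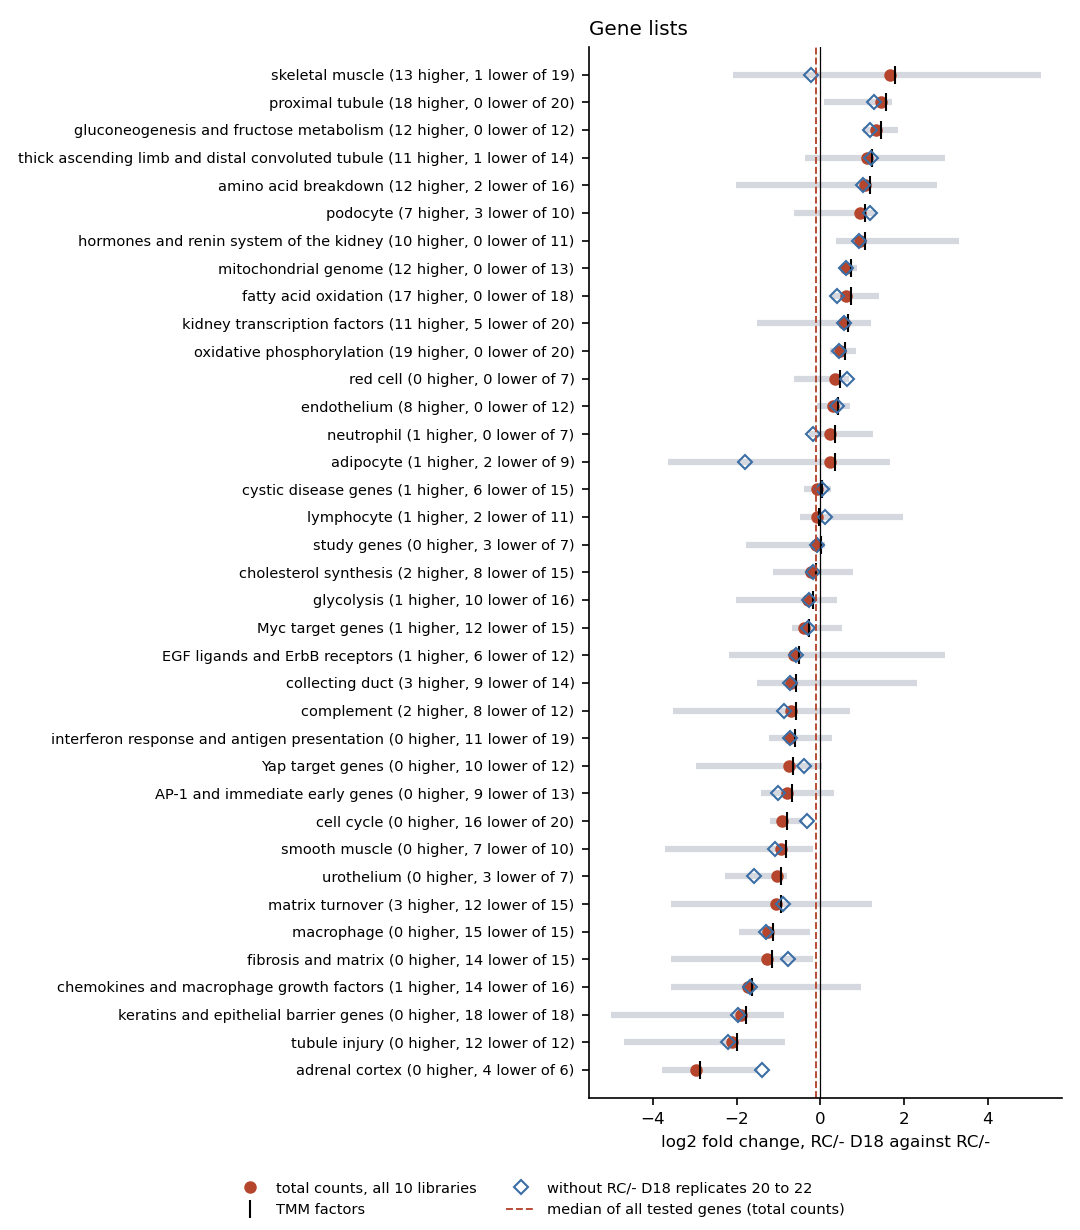
Median log2 fold change of RC/- D18 against RC/- in each of 37 gene lists (x axis), with total counts (filled circles), TMM factors (ticks) and without RC/- D18 replicates 20 to 22 (diamonds). Grey bars give the range of the members, and the numbers beside each name give the genes called higher and lower of those tested. Tubule injury (median -2.11) and proximal tubule (median 1.44) lie on opposite sides of the dashed line at -0.10, and the skeletal muscle diamond lies at -0.23 against a circle at 1.66.

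Macrophage genes fell in all 15 members of the list, with a median of -1.24, and 13 did not overlap. Lyz2, the lysozyme of myeloid cells, had 142, 142, 193, 277 and 209 CPM in RC/- and 48.8, 50.3, 48.2, 49.9 and 45.7 CPM in RC/- D18 (-1.94 ± 0.13, adjusted p = 9.3e-11). Adgre1, which encodes the F4/80 antigen, had 23.3, 20.9, 27.4, 36.6 and 39.6 CPM in RC/- and 14.2, 11.4, 14.9, 10.9 and 9.67 CPM in RC/- D18 (-1.24 ± 0.15, adjusted p = 5.3e-07). Csf1r, the receptor through which macrophages receive their growth signal, changed least (-0.25 ± 0.07, adjusted p = 0.0086), and its call was lost without replicates 20 to 22 (adjusted p = 0.088). The summed list was 780.1 to 1518 CPM in RC/-, 474 to 523 CPM in RC/- D18 and 385 to 427 CPM in the non-cystic kidneys, so the RC/- D18 sums lay above all 6 of these. Ligands that recruit or feed macrophages fell in 14 of 16. Csf1 had 59.9, 53.7, 77.5, 66.8 and 71.05 CPM in RC/- and 19.1, 21.9, 18.4, 17.9 and 14.96 CPM in RC/- D18 (-1.83 ± 0.11, adjusted p = 2.3e-11) and Il34, the other ligand of Csf1r, fell from 42.4 ± 12.8 to 10.2 ± 1.35 CPM (adjusted p = 3.2e-09). The chemokines Ccl8, Ccl7, Cxcl1 and Cxcl2 had the largest falls, at -3.56 ± 0.45, -2.78 ± 0.32, -2.75 ± 0.39 and -2.55 ± 0.47, from under 20 CPM in every library. Cxcl12, a stromal chemokine, was the exception, with 251, 201, 176, 218 and 162 CPM in RC/- and 371, 454, 412, 377 and 356 CPM in RC/- D18 (0.98 ± 0.09, adjusted p = 1.5e-08).

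Complement genes were lower in 8 of 12 and higher in 2, beside 26.9% and 14.3% of all genes, so the share of higher members was near that of all genes. Without replicates 20 to 22, 8 were lower and 1 higher. C3, the central component, had 91.8, 108, 263, 258 and 356 CPM in RC/- and 14.7, 13.03, 21.1, 22.6 and 13.2 CPM in RC/- D18 (-3.51 ± 0.27, adjusted p = 7.2e-10), and C4b gave -2.75 ± 0.29, adjusted p = 7.3e-08. Cfb, of the alternative pathway, was one of the higher ones (0.71 ± 0.24, adjusted p = 0.02) and shares 79.5% of its exon bases with another gene. Cfb lost its call without replicates 20 to 22 (adjusted p = 0.48). Interferon-response and antigen-presentation genes were lower in 11 of 19 (26.9% of all genes; median -0.73), led by the immunoproteasome subunit Psmb8 (-1.22 ± 0.21, adjusted p = 5.5e-05). Of 11 lymphocyte markers 2 were lower and 1 higher, shares near or below the 26.9% and 14.3% of all genes, and without replicates 20 to 22 only the higher one, Cd8a, was called. Cd8a had 0.513, 1.18, 1.03, 0.588 and 0.841 CPM in RC/- and 3.94, 2.88, 2.63, 3.36 and 4.12 CPM in RC/- D18 (1.97 ± 0.25, adjusted p = 7.1e-07), while its partner chain Cd8b1 (-0.17 ± 0.46, adjusted p = 0.80) and Cd3e (0.23 ± 0.38, adjusted p = 0.67) did not pass the test and stayed under 1 CPM. Of 7 tested neutrophil genes 1, Camp, was called (1.26 ± 0.44, adjusted p = 0.024), and not without replicates 20 to 22 (adjusted p = 0.55). Tnfsf8, the CD30 ligand (-3.55 ± 0.38, adjusted p = 7.7e-08), was among the 12 lowest fold changes. So were the plasma protein Itih4 (-4.10 ± 0.64, adjusted p = 1.6e-05) and Lgi2 (-3.62 ± 0.40, adjusted p = 9.7e-08). The GTPase-activating protein Arhgap36 (-3.81 ± 0.38, adjusted p = 2.2e-08) and the matricellular Ccn5 (-3.52 ± 0.49, adjusted p = 2.8e-06) were there too. Leptin (Lep), a hormone of adipocytes, was another (-3.63 ± 0.62, adjusted p = 4.5e-05). The part of fat in its change was not tested.

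Proliferation genes were lower in the mean, but the change rested on part of the RC/- D18 libraries. Of 20 cell cycle genes 16 were called lower, with a median of -0.92. Their summed CPM was 1089, 854, 995, 914 and 627 in RC/- and 729.9, 714, 624, 439.6 and 243 in RC/- D18, so that RC/- replicate 17 lay below RC/- D18 replicates 18 and 19 and just above replicate 20. Without replicates 20 to 22, 1 of the 20 was called, Mcm2 (-0.55 ± 0.16, adjusted p = 0.013), with a median of -0.32. Top2a, which untangles DNA in dividing cells, had 111, 85.2, 102, 93.1 and 56.8 CPM in RC/- and 66.8, 64.02, 54.5, 40.2 and 16.03 CPM in RC/- D18 (-1.01 ± 0.30, adjusted p = 0.0086, and -0.42 ± 0.29, adjusted p = 0.31 without those 3 libraries). The proliferation antigen Mki67 did not pass the test (-0.83 ± 0.34, adjusted p = 0.055). Plk1 and Tpx2, of the mitotic spindle, had the largest changes of the list (-1.20 ± 0.32 and -1.15 ± 0.28), and neither was called without those libraries. The non-cystic kidneys had sums of 339 to 744 CPM.

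Targets of Myc in ribosome production and nucleotide synthesis were lower in 12 of 15 and higher in 1 (median -0.39). Cad, the first enzyme of pyrimidine synthesis, gave -0.68 ± 0.08, adjusted p = 2.2e-07, Nop58 -0.65 ± 0.07, Npm1 -0.57 ± 0.09 and Fbl -0.54 ± 0.06. Eef1a1, the translation elongation factor, was among the 6 largest falls in CPM, from 5382 ± 608 to 4282 ± 249 CPM (-0.32 ± 0.08), and was not called with TMM factors (adjusted p = 0.067). The mitochondrial chaperone Hspd1, also counted as a Myc target, rose (0.51 ± 0.07, adjusted p = 2.2e-06). Targets of Yap fell in 10 of 12 (26.9% of all genes), with a median of -0.76 that became -0.40, with 7 lower, without replicates 20 to 22. Among them was Ankrd1, a muscle-stress protein that tubule cells also make, with 29.2, 30.5, 31.9, 57.3 and 63.7 CPM in RC/- and 6.75, 6.13, 4.63, 4.77 and 3.52 CPM in RC/- D18 (-2.98 ± 0.26, adjusted p = 4.1e-09), followed by Tgfb2 (-1.92 ± 0.15), Ccn1 (-1.51 ± 0.25) and tissue factor F3 (-1.44 ± 0.12). Immediate early genes fell in 9 of 13 (median -0.80), led by Egr1 (-1.41 ± 0.19), Myc and Junb (-1.22 ± 0.14). Genes mutated in cystic kidney disease showed no common direction, with 1 of 15 higher and 6 lower under total counts (14.3% and 26.9% of all genes), 4 higher and 2 lower with TMM factors, and 2 higher and 1 lower without replicates 20 to 22. Pkhd1, the gene of recessive polycystic disease, gave -0.29 ± 0.08, adjusted p = 0.0047 (with TMM factors -0.17 ± 0.08, adjusted p = 0.07), Glis2 -0.39 ± 0.08, adjusted p = 3.6e-04 and Tsc1 0.25 ± 0.08, adjusted p = 0.01.

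Skeletal muscle transcripts separated RC/- D18 replicates 20 to 22 from the other 7 libraries. Myh4, the fast myosin heavy chain, stood at 0, 0, 0.0794, 0.042 and 0 CPM in RC/- and 0, 0, 50.5, 45.7 and 55.2 CPM in RC/- D18. Acta1, skeletal muscle actin, had 7.995, 7.43, 5.36, 6.13 and 5.97 CPM in RC/- and 6.18, 7.52, 45.4, 45.1 and 47.9 CPM in RC/- D18, and creatine kinase Ckm had 0.299, 0.211, 0.0794, 0.042 and 0 CPM in RC/- and 0, 0, 10.2, 8.50 and 11.1 CPM in RC/- D18. The values were 0 or close to it in replicates 18 and 19 for Myh4 and Ckm and within the RC/- range for most of the list. Of 19 tested muscle genes 13 were called higher and 1 lower. Without replicates 20 to 22 limma called 0 of them higher (2 at an unadjusted p below 0.05) and 4 lower. Replicates 20 to 22 were set apart by these same transcripts, so the loss of the higher calls was fixed in advance. Neither count of higher genes is evidence on the motif deletion. Mybpc2, a myosin-binding protein, ran against the list with 11.3, 17.1, 15.3, 14.9 and 26.8 CPM in RC/- and 2.10, 1.10, 6.59, 6.58 and 7.85 CPM in RC/- D18 (-2.07 ± 0.44, adjusted p = 4.8e-04, and -3.36 ± 0.45, adjusted p = 1.2e-05 without these libraries), and its non-cystic levels were 0.622 ± 0.0962 CPM in RC/+ and 0.399 ± 0.312 CPM in RC/+ D18. Parvalbumin, which fast muscle also makes, was already higher in replicates 18 and 19 (2.33 ± 0.41, adjusted p = 2.3e-04).

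**Figure D4:**
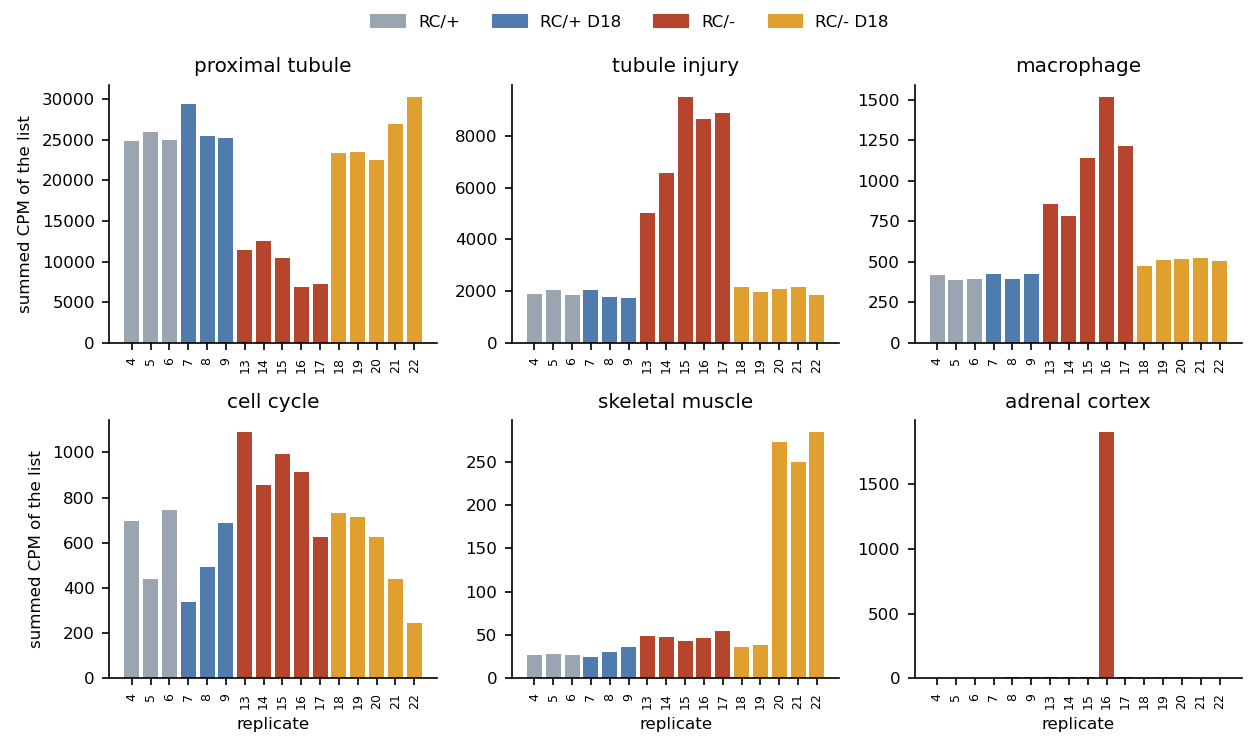
Summed CPM (y axes, from 0) of 6 gene lists in each of 16 libraries (x axes, replicate numbers), coloured by genotype. Proximal tubule sums were 6842 to 12493 in RC/- and 22544 to 30282 in RC/- D18, skeletal muscle sums were high in RC/- D18 replicates 20 to 22 alone, and the adrenal cortex sum was high in RC/- replicate 16 alone.

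Other tissues that can adhere to a kidney were unevenly present too. Adipocyte genes varied among libraries of both groups, with Adipoq at 29.4, 1.86, 0.318, 39.96 and 21.5 CPM in RC/- and 5.69, 0.431, 28.4, 10.96 and 14.8 CPM in RC/- D18 (-0.10 ± 1.09, adjusted p = 0.95). Of 9 such genes 1 was higher and 2 lower, near the shares of all genes (14.3% and 26.9%). The median was 0.23 and became -1.80 without replicates 20 to 22. The list sums were 729 to 1942 CPM in RC/-, 2559 to 5234 CPM in RC/- D18 and 2312 to 4113 CPM in the non-cystic kidneys. Gene lists here can share members, so neither the sums nor the higher gene need reflect fat. Adrenal cortex genes were called lower in 4 of 6 tested, and RC/- replicate 16 stood apart from the rest. Cyp11b1, the last enzyme of corticosterone synthesis, had 0.342, 0.380, 0.596, 186 and 0.531 CPM in RC/- and 0.482, 0.719, 0.0392, 0 and 0 CPM in RC/- D18. Without RC/- replicate 16 limma called 1 of the 6 genes, Cyp21a1 of steroid hydroxylation. The part of muscle, fat or adrenal tissue in the other results was not tested.

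Compared with non-cystic kidneys of the same founder line, RC/- D18 kidneys differed in few genes. Against RC/+ D18 the test called 60 of 22570 genes (0.266%), 59 higher (0.261%) and 1 lower (0.00443%), the latter the RNA cyclase Rtca (-0.33 ± 0.07, adjusted p = 0.047). These counts share the RC/- D18 libraries with the comparison above, the smaller RC/+ D18 group has 3 libraries, and without replicates 20 to 22 the count was 2, the gene models Gm14165 and Gm8730. Leaving out 1 library changed the count to 14 (RC/+ D18 replicate 8), 27 (RC/+ D18 replicate 7), 23 (RC/- D18 replicate 21) or 90 (RC/+ D18 replicate 9). Among genes of the lists 6 were called, 3 of them in the skeletal muscle list, Mybpc2 (3.38 ± 0.51, adjusted p = 0.0021), titin (Ttn; 2.88 ± 0.54, adjusted p = 0.016) and the actinin Actn3 (1.73 ± 0.34, adjusted p = 0.026). Ttn was at 11.4 to 12.9 CPM in RC/- D18 replicates 20 to 22 and 1.18 and 1.77 CPM in replicates 18 and 19. The other 3 were in epithelial and collecting duct lists. Gata3 averaged 21.5 ± 0.518 CPM in RC/+ D18, 36.7 ± 1.70 in RC/- D18 (log2 fold change against RC/+ D18 0.77 ± 0.12, adjusted p = 0.0021) and 105 ± 7.63 in RC/-. Hsd11b2 was likewise between the other groups, with 409 ± 65.9 CPM against 240.3 ± 17.6 in RC/+ D18 (0.76 ± 0.15, adjusted p = 0.033), as was S100a14, with 11.1 ± 3.46 against 4.51 ± 1.43 CPM (1.30 ± 0.25, adjusted p = 0.02). Of genes described above, Lcn2 gave 1.53 ± 0.39, adjusted p = 0.12, Egf -0.13 ± 0.31, adjusted p = 0.96 and Slc34a1 -0.20 ± 0.21, adjusted p = 0.88 against RC/+ D18, none past the threshold. The median of the tubule injury list was 0.34 and that of the proximal tubule list -0.20. The calcium channel Trpv6, the transcription factor Gata2 and the retinal dehydrogenase Aldh1a1 were picked out of the 60 after their values were seen (0.86 ± 0.19, 0.67 ± 0.10 and 1.05 ± 0.23), and each was lower than in RC/- (-2.98 ± 0.16, -0.91 ± 0.09 and -2.51 ± 0.20).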

How the data were processed

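RNA-seq of 24 whole kidneys was analysed, with 10 libraries in the main comparison. The deposited values are raw counts of reads per gene, made by the authors from total RNA with Trim Galore 0.6.3 and STAR 2.5.3a on GRCm38, per the submitters' processing notes and methods. The strand setting of the counting is not given in the sources used here, so overlapping genes may share reads. The members, gene lists and tests were chosen with earlier results of these data known. Counts were scaled to each library's total and turned into log2 CPM (prior count 2), and genes averaging -3 or more on that scale over all libraries were kept (22570 of 54532 genes in the table). Total counts were 20.9 to 28.1 M reads in the cystic groups compared. limma 3.58.1 (R 4.3.3) with a mean-variance trend was fitted to all 6 groups, those labelled D53 included. P-values were adjusted by Benjamini-Hochberg over all tested genes, with a threshold of 0.05. TMM factors, edgeR 4.0.16 (quasi-likelihood) and DESeq2 1.42.0 on the raw counts, a second prior count, no filter, a sex term and leaving out libraries were alternatives. Another alternative was a covariate for the libraries numbered 20 to 27. The script was tested on simulated counts. Named genes were the study's 7 genes, the 12 highest and 12 lowest fold changes among protein-coding genes that were called with and without replicates 20 to 22, did not overlap and had a mean of at least 1 CPM, the 6 largest rises and falls in CPM, up to 4 called members per list, members called against their list's direction, tissue markers and muscle genes. Csf1, Il34, Hsd11b2, Ren1, Mcm2, Rtca, Gm14165, Gm8730, Trpv6, Gata2 and Aldh1a1 were named after their values were seen. Some genes that the rule named are not reported here.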

Additional observations from a re-analysis of the deposited data

Results flagged for a closer look

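Of 326 sets of 5 libraries tested for an extreme member (each named gene in RC/- and in RC/- D18), 15 held a library whose gap to the nearest other exceeded Dixon's 95% critical value of 0.71 times the range. Chance flags about 5% of such sets.

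RC/- replicate 16 was the extreme library in 6 of them. It held 186 CPM of Cyp11b1 and 246 CPM of Cyp21a1, 2 enzymes of adrenal steroid synthesis, where the other 4 RC/- libraries held at most 0.596 and 1.23 CPM. It was also highest in complement C4b (50.7 CPM against 12.8 to 19.97), in the matricellular Ccn5 (11.5 CPM against 1.84 to 4.41) and in Camp (0.168 CPM against at most 0.0442), and lowest in Cfb (2.22 CPM against 3.63 to 4.05).

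In the rest of RC/-, replicate 17 was low in mt-Cytb (6121 CPM against 7359 to 7655) and replicate 14 in Plce1 (21.1 CPM against 24.2 to 25.4). In RC/- D18, replicate 21 was low in Epo (0.506 CPM against 4.23 to 5.61) and high in S100a14 (17.1 CPM against 8.60 to 10.8). Replicate 19 was high in Havcr1 (3.59 CPM against 0.320 to 0.942) and held 0.0479 CPM of Tat, which was at 0 in the other 4. Replicate 20 was high in Mmp9 (4.24 CPM against 2.20 to 2.68) and low in Slc12a3 (529.8 CPM against 769 to 842), and replicate 18 was high in Ccl7 (0.657 CPM against 0.192 to 0.314).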

How the results depend on the processing

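The count of genes called between RC/- D18 and RC/- stayed within 1.5 times the reported 9305 under 19 of 20 alternatives and was 6120 without RC/- D18 replicates 20 to 22. Leaving out 1 library at a time gave 8315 to 9231 calls, and 2263 to 2767 with a log2 fold change of at least 1 in size. The mean difference in the mitochondrial share was 2.02 to 2.37 percentage points with 1 library left out and 1.74 without replicates 20 to 22, where 2 against 5 libraries cannot pass the threshold. The difference in total counts was 0.476 to 2.29 M reads with 1 library left out and turned to -1.89 M reads without replicates 20 to 22. The few calls against RC/+ D18 depended on the processing: 37 with TMM factors, with DESeq2 size factors and with edgeR, 143 with DESeq2, 12 with the compared groups alone, 11 with the libraries numbered 20 to 27 as a covariate and 2 without replicates 20 to 22. With 1 library left out they ranged from 14 to 90, with 14 without replicate 8, 27 without replicate 7, 23 without replicate 21 and 90 without replicate 9. The cause was not tested. Of 161 named genes, 2 muscle genes changed sign: Ckm (-1.13 without replicates 20 to 22, -1.14 with the covariate) and Myh4 (-0.32 under both). Of 3213 fits of named genes under an alternative, 3101 kept direction and side of the threshold, 93 lost the call and 15 gained it. The 4 that reversed were these 2 genes under these 2 alternatives. The 2 alternatives are not separate checks, although they are counted here as 2 of the 20. The covariate differed within RC/- D18 alone. Its estimate for that group therefore rested on the same 2 libraries as leaving out replicates 20 to 22. No paired analysis was possible because replicate numbers are not shared between groups. Low counts limit genes near 1 CPM, and 2 libraries remained in RC/- D18 once replicates 20 to 22 were left out.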

Other observations

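Transcript classes differed in the shares of genes called, beside 14.3% higher and 26.9% lower of all tested genes. Of 16540 protein-coding genes tested, 2625 were higher (15.9%) and 5604 lower (33.9%) in RC/- D18 than in RC/-. Their median log2 fold change was -0.13 (-0.02 with TMM factors). Of 3140 long noncoding RNA genes, 422 were higher (13.4%) and 246 lower (7.83%), with a median of 0.09 (0.17 with TMM factors). The share of higher genes in this class was thus near that of all genes, and the share of lower genes was smaller. Processed pseudogenes numbered 1336, with 52 higher (3.89%), 119 lower (8.91%) and a median of -0.14 (-0.06 with TMM factors). No test of the difference between classes was run.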
